A study of Mus musculus and Homo sapiens with 34 samples.

Results

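Keratins are the intermediate filament proteins of epithelial cells, and 10 keratin genes were followed here by name through 7 tables of RNA-seq read counts: Krt5, Krt6a, Krt7, Krt8, Krt14, Krt15, Krt17, Krt18, Krt19 and Krt20, in upper case in the human tables. The mouse and human tables together listed 48431 distinct gene identifiers, and a keratin listed in both species has 1 in each. The members were found in each table by gene name. All 10 had a row in the 1027B table and in the 2-week 3154 table, 9 in the 48-hour 3154 table, 7 in the 3311 table, 9 in each human trametinib table and 6 in the doxycycline table.

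A keratin filament is built from 1 type I and 1 type II protein, so cells express members of both types. Krt8 (type II) and Krt18 (type I) are the usual partners of simple, single-layered epithelium, joined by Krt7 (type II) and Krt19 (type I) in ducts and airways and by Krt20 (type I) in the lining of stomach and intestine. Krt5 (type II) with Krt14 (type I) is the partnership of basal cells, Krt15 is another type I keratin of basal cells, and Krt6a (type II) and Krt17 (type I) are made by stressed or wounded stratified epithelium.

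The study asked how HNF4α, a transcription factor of liver and gut, and signalling through MEK shape the identity of lung adenocarcinoma cells. There were 34 libraries in 17 groups of 2. Among the alleles that mouse 3154 organoids carried were p53frt, Rosa-FSF-CreERT2 and Hnf4aflox, and the organoids were given 2 mM 4-hydroxytamoxifen (4OHT), which activates the Cre recombinase, or ethanol for 2 days, with RNA taken 2 weeks later. In a second experiment they received 4OHT or ethanol, with 3 nM of the small-molecule inhibitor MRTX1133 or vehicle, for 48 hours. Mouse 1027B organoids and the mouse line 3311 carried, among others, p53frt, Rosa-FSF-CreERT2, Foxa1flox and Foxa2flox, and none of their groups was labelled as given 4OHT. Treatment for 48 hours was with trametinib, which inhibits MEK, at 50 nM in 3311, at 10 nM in 1027B and at 20 nM in H358 and H1651, human cell lines from lung adenocarcinoma, each beside its vehicle group. A further 1027B group was given MRTX1133 at 20 nM. H1651 cells with a lentiviral HNF4A construct were grown for 7 days with or without 1 µg/mL doxycycline. All treated and control groups of the mouse cultures shared the p53 and CreERT2 alleles. No group without Hnf4aflox was given 4OHT, and doxycycline was given only to H1651 cells with the construct. Effects of 4OHT or doxycycline themselves therefore cannot be told apart from those of the change in Hnf4a. Each culture was a single line, and nothing in the labels says that replicates came from separate cultures, so the p-values measure the spread between these libraries, which may be technical.

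Levels are in CPM, read counts scaled to a common library size with TMM factors, given as mean ± SD of n = 2 libraries. A change is the log2 ratio of treated to reference with its standard error (SE), and a gene was called when its Benjamini-Hochberg adjusted p over all genes of the table was under 0.05. Total counts ran from 19692517 to 45284286 per library, and the 10 keratins together took from 0.423% to 1.24% of a library. Hnf4a was at 315 and 427 CPM in the ethanol libraries at 2 weeks and at 53.5 and 68.0 CPM after 4OHT. At 48 hours it was at 221 and 230 CPM with ethanol and vehicle, and at 49.4 and 50.4 CPM with 4OHT and vehicle. Doxycycline raised HNF4A in H1651 from 41.5 ± 7.89 to 95.6 ± 1.73 CPM. Of 5 epithelial markers, all had counts in every culture, but the level of EPCAM in H1651 was 1.66 ± 0.582 CPM in the vehicle libraries, and the summed level of 8 fibroblast markers there ran from 436 to 537 CPM. In bulk RNA, fewer cells of a type and less RNA per cell cannot be told apart.

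In the GRCm38 build of the mouse genome, Krt8 lies on chromosome 15 from 101996698 to 102004482 on the minus strand, and Krt18 lies next to it from 102028180 to 102032027 on the plus strand, with 23697 bases between them. Krt7 lies on the same chromosome from 101411043 to 101430313 on the plus strand. Krt20 lies on chromosome 11 from 99428403 to 99438150 on the minus strand, in the type I cluster that also holds Krt19 at 100140810 to 100148665. RefSeq promoter windows (GRCm38.p6) were at hand for 6 of the 10 members. Those of Krt7 and Krt20 are shown because these genes moved in opposite directions on loss of Hnf4a, and those of Krt8 and Krt18 because these partners diverged under trametinib. Each is the part of the 250 bases before the RefSeq start that no annotated UTR covers, written 5′ to 3′ on the gene's strand, with matches to the searched motifs in capitals. The windows lie at chr15:101412153-101412401 on the plus strand for Krt7, chr11:99438154-99438403 on the minus strand for Krt20, chr15:102004483-102004592 on the minus strand for Krt8 and chr15:102027966-102028179 on the plus strand for Krt18.
Krt7: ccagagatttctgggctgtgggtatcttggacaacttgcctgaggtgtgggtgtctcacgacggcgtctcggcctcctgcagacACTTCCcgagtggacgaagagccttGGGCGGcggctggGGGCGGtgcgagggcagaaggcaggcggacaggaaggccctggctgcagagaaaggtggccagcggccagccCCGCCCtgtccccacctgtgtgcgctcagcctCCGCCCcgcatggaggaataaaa
Krt20: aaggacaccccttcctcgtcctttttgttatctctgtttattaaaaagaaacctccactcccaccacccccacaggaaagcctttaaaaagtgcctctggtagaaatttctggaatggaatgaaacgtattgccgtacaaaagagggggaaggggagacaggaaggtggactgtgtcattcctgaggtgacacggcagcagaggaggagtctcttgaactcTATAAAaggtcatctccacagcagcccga
Krt8: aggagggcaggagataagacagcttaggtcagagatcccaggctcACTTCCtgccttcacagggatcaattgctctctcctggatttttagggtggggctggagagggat
Krt18: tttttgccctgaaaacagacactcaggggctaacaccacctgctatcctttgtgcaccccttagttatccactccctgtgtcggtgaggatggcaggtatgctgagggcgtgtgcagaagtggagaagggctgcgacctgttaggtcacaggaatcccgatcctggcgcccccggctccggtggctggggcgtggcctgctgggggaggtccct
The motifs searched on both strands were the core promoter motif TATAAA, the Sp1 box GGGCGG, the ETS factor core GGAAGT, the AP-1 site TGANTCA, the forkhead factor site TGTTTAC and the HNF4 site CAAAGNNCA, over all 250 bases of each window. The Krt20 window held TATAAA from 29 to 24 bases before the start, as 12.4% of 32851 promoter windows did at some position. The Krt7 window held GGGCGG at 4 positions, a motif found in 32.7% of windows, and GGAAGT 166 to 161 bases before the start. Krt8 held GGAAGT 205 to 200 bases before the start, in the far end of the window that is printed above, and 19.7% of all windows held that motif. No motif searched was in the Krt18 window, and CAAAGNNCA, present in 5.49% of windows, was in none of the 6. A match is a description of letters and not a binding site.

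At baseline, Krt8, Krt18 and Krt19 were the most abundant of the 10 per length of exon in each of the 4 mouse reference groups. In the 2-week ethanol 3154 organoids, Krt8 was at 1981 ± 185, Krt18 at 1945 ± 121 and Krt19 at 1242 ± 35.2 CPM per kilobase of exon. Krt8 and Krt18 differed there by less than the spread between libraries. Krt20 followed at 153 ± 13.5 and Krt7 at 124 ± 10.2 CPM per kilobase. Exon length is the union of all annotated exons, 7049 bases for Krt7 and 1927 for Krt20. The longest coding transcript of Krt7 has 4094 bases, so its level per kilobase depends on the length used. In CPM, Krt7 was at 874 ± 72.0 and Krt20 at 294 ± 26.1, the reverse order. Krt14 was at 20.1 ± 7.81, Krt6a at 3.75 ± 1.05, Krt5 at 3.62 ± 1.19 and Krt15 at 0.198 ± 0.0637 CPM per kilobase, and Krt6a and Krt5 differed by less than their spread. Krt7 ranged widely between the lines: 280 ± 42.6 CPM per kilobase in vehicle 1027B organoids, 95.9 ± 23.5 in ethanol and vehicle 3154 organoids and 2.39 ± 1.12 in vehicle 3311 cells, values from tables that were normalized separately. Krt5 was at 7.95 ± 2.61 CPM in ethanol organoids of the 2-week experiment and at 0.105 ± 0.0295 CPM in those of the 48-hour experiment, from 2 such tables. Krt17 had at most 2 counts in any mouse library that listed it.

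**Figure D1:**
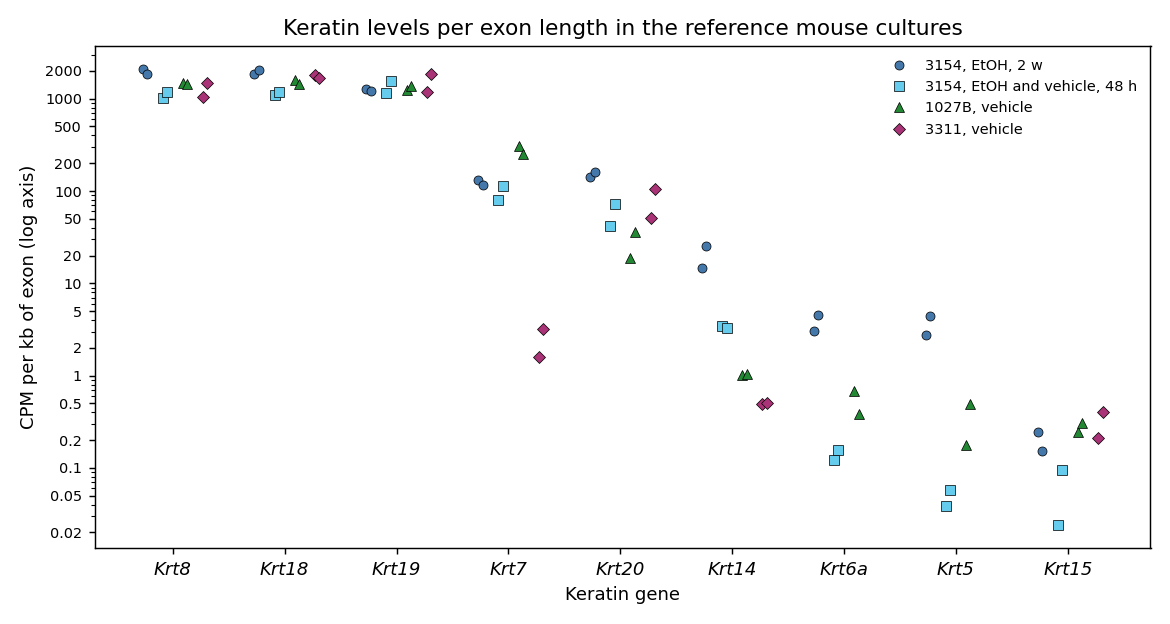
Each point is 1 library, and the y axis (log) gives CPM per kilobase of exon in the reference groups of the 4 mouse tables. Exon length is the union of all annotated exons, 7049 bases for Krt7. Krt8, Krt18 and Krt19 sit near the top in every group, while Krt7 is at 2.39 CPM per kilobase on average in 3311 and at 280 in 1027B.

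Loss of Hnf4a for 2 weeks in 3154 organoids raised Krt7 and Krt6a and lowered Krt20, while the simple keratins Krt8, Krt18 and Krt19 were not called. Of the 9 members tested, 2 rose and 1 fell, beside 9.81% called among all genes tested, 4.03% as higher and 5.78% as lower. The median change of the members was -0.01 and that of all genes tested 0.02.

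Krt7 had 925 and 823 CPM in the ethanol libraries and 2401 and 2268 CPM in the 4OHT libraries. Every 4OHT library lay above both ethanol libraries, and the log2 change was 1.42 (SE 0.13, adjusted p = 0.007916). Krt6a stood at 7.29 and 10.9 CPM with ethanol and at 43.8 and 70.2 CPM with 4OHT, also without overlap (log2 change 2.66, SE 0.31, adjusted p = 0.01237). Counts of Krt6a are uncertain, because 49.5% of the 50-base windows of its transcript also occur in Krt6b or the gene model Gm5478.
Krt20 fell from 276 and 313 CPM to 73.0 and 126 CPM, a log2 change of -1.57 (SE 0.27, adjusted p = 0.02533). It was the called member that went the same way as Hnf4a. Krt8 was at 3878 ± 361 CPM with ethanol and 3858 ± 248 CPM with 4OHT (log2 change -0.01, SE 0.14), and Krt18 at 2795 ± 174 and 2805 ± 438 CPM (log2 change below 0.01 in size). Krt19 was at 2303 ± 65.3 CPM with ethanol and 2136 ± 215 CPM with 4OHT (log2 change -0.11, SE 0.13). For these 3 keratins the ethanol and 4OHT libraries overlapped.
The basal keratins Krt14 and Krt5 were lower in both 4OHT libraries, but neither change passed the test without a replicate block. Krt14 had 25.6 and 45 CPM with ethanol and 17.1 and 23.1 CPM with 4OHT (log2 change -0.81, SE 0.31, adjusted p = 0.157). Krt5 had 6.10 and 9.79 CPM with ethanol and 3.18 and 4.8 CPM with 4OHT (log2 change -0.99, SE 0.35, adjusted p = 0.137). A fit with the replicate number as a block called Krt14 (-0.77, adjusted p = 0.0071) and Krt5 (-0.98, adjusted p = 0.013), beside 4563 of 14492 genes. Both were called without the first ethanol library, with log2 changes of -1.18 for Krt14 and -1.31 for Krt5. Krt15, the other basal keratin, was higher in both 4OHT libraries at low counts, 14 and 20 against 13 and 6 with ethanol, and was not called (log2 change 0.75, SE 0.52, adjusted p = 0.382), and Krt17 was not tested.
Of 7 leukocyte markers, 4 had a row in this table, and their summed level was 18.6 to 44.7 CPM with ethanol and 10.1 to 13.5 CPM with 4OHT. Csf1r, the receptor for a macrophage growth factor, made up most of it and fell from 25.6 ± 17.6 to 4.29 ± 1.19 CPM, while the pan-leukocyte gene Ptprc had 9 counts with ethanol and 15 with 4OHT over both libraries. Endothelial markers summed to 11.8 to 13.8 CPM with ethanol and 6.24 to 11.8 CPM with 4OHT, with 1 of 2 tested called lower, and fibroblast markers to 0.330 to 0.404 and 0.525 to 0.853 CPM. The part of these markers in the keratin changes was not tested.

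The 48-hour experiment gave the same direction for Krt7, Krt6a and Krt20 and added Krt14 and Krt15, which rose. With vehicle, 4 of the 8 members tested rose and 1 fell, beside 31% called among all genes, 15.3% as higher and 15.7% as lower. With MRTX1133 present, again 4 of 8 rose and 1 fell, beside 27.7% of all genes, 13.2% as higher and 14.5% as lower. The median change of the members was 0.67 with vehicle and 0.55 with MRTX1133, beside 0.01 and -0.01 for all genes tested.
Krt7 had 559 and 793 CPM with ethanol and vehicle and 1562 and 1517 CPM with 4OHT and vehicle (log2 change 1.19, SE 0.18, adjusted p = 0.002642). With MRTX1133 it had 558 and 672 CPM after ethanol and 1225 and 1160 CPM after 4OHT (log2 change 0.96, SE 0.18, adjusted p = 0.006622). Krt6a was nearly absent from the ethanol libraries, with 7 and 9 counts under vehicle and 5 and 10 under MRTX1133. It had 296 and 314 counts with 4OHT and vehicle, or 11.2 and 14.0 CPM, and 14.9 and 11.5 CPM with 4OHT and MRTX1133. The log2 changes were 5.21 (SE 0.33, adjusted p = 0.0001412) and 5.46 (SE 0.34, adjusted p = 0.0001286).
Krt20 had 81.2 and 138 CPM with ethanol and vehicle and 48.3 and 49.2 CPM with 4OHT and vehicle, a log2 change of -1.17 (SE 0.30, adjusted p = 0.02006). Under MRTX1133 it had 83.7 and 140.5 CPM after ethanol and 40.0 and 45.4 CPM after 4OHT (log2 change -1.39, SE 0.30, adjusted p = 0.01141). The ethanol libraries of each pair stood apart from each other, and each lay above both 4OHT libraries. The call with vehicle was lost without the second ethanol library (log2 change -0.74, adjusted p = 0.0503) and without either 4OHT library (-1.16, adjusted p = 0.109, and -1.19, adjusted p = 0.108). That under MRTX1133 was likewise lost without the second ethanol library (log2 change -0.98, adjusted p = 0.0587) and without either 4OHT library (-1.31, adjusted p = 0.0883, and -1.49, adjusted p = 0.065).
Krt14 had 6.02 and 5.83 CPM with ethanol and vehicle and 12.6 and 14.5 CPM with 4OHT and vehicle (log2 change 1.19, SE 0.17, adjusted p = 0.002203). With MRTX1133 it had 3.87 and 4.02 CPM after ethanol and 16.3 and 13.3 CPM after 4OHT (log2 change 1.91, SE 0.18, adjusted p = 0.0004207). Its transcript shares 14.4% of its 50-base windows with Krt16 or Krt17. Krt15 rose from 5 counts in the 2 ethanol libraries to 47 in the 2 4OHT libraries under vehicle (log2 change 3.14, SE 0.56, adjusted p = 0.004956) and from 11 to 36 counts under MRTX1133 (log2 change 1.62, SE 0.50, adjusted p = 0.04397). The call under MRTX1133 was lost when any 1 of its 4 libraries was left out, with adjusted p from 0.0761 to 0.203, in DESeq2 (0.108) and with no filter on low counts (0.0522). Krt8, Krt18 and Krt19 were not called in either setting, with log2 changes from -0.43 (Krt19 with MRTX1133, SE 0.16, adjusted p = 0.0884) to 0.15 (Krt8 with vehicle).
The ratio of Krt8 to Krt18 counts was 1.26 and 1.37 with ethanol and vehicle and 1.61 and 1.59 with 4OHT and vehicle, whereas at 2 weeks it overlapped, at 1.55 and 1.24 with ethanol and 1.48 and 1.3 with 4OHT.
The leukocyte list did not separate the groups at 48 hours, with summed levels of 5.50 to 5.64 CPM in the ethanol and vehicle libraries and 5.31 to 5.76 CPM in the 4OHT and vehicle libraries, and 2.69 to 5.36 against 4.69 to 7.24 CPM under MRTX1133. The endothelial list did: it summed to 1.17 to 2.40 CPM with ethanol and 3.60 to 4.15 CPM with 4OHT under vehicle (1 of 3 called higher), and to 2.21 to 2.76 and 5.44 to 5.54 CPM under MRTX1133 (2 of 3 called higher). Fibroblast markers, of which 1 was listed, went from 0.168 to 0.337 CPM to 0.447 to 0.493 CPM under vehicle (not called) and from 0.115 to 0.121 CPM to 0.426 to 0.473 CPM under MRTX1133 (called higher). The part of these lists in the keratin changes was not tested. The 2 deletion comparisons at 48 hours came from 1 fit and are described side by side. No member was called for the interaction of 4OHT with MRTX1133, and neither was any other gene (edgeR: 0% of genes tested, 1150 genes with an unadjusted p under 0.05; DESeq2 called 32). Krt14 had the smallest p of the members for it (interaction 0.71, SE 0.24, unadjusted p = 0.0189, adjusted p = 0.593).

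**Figure D2:**
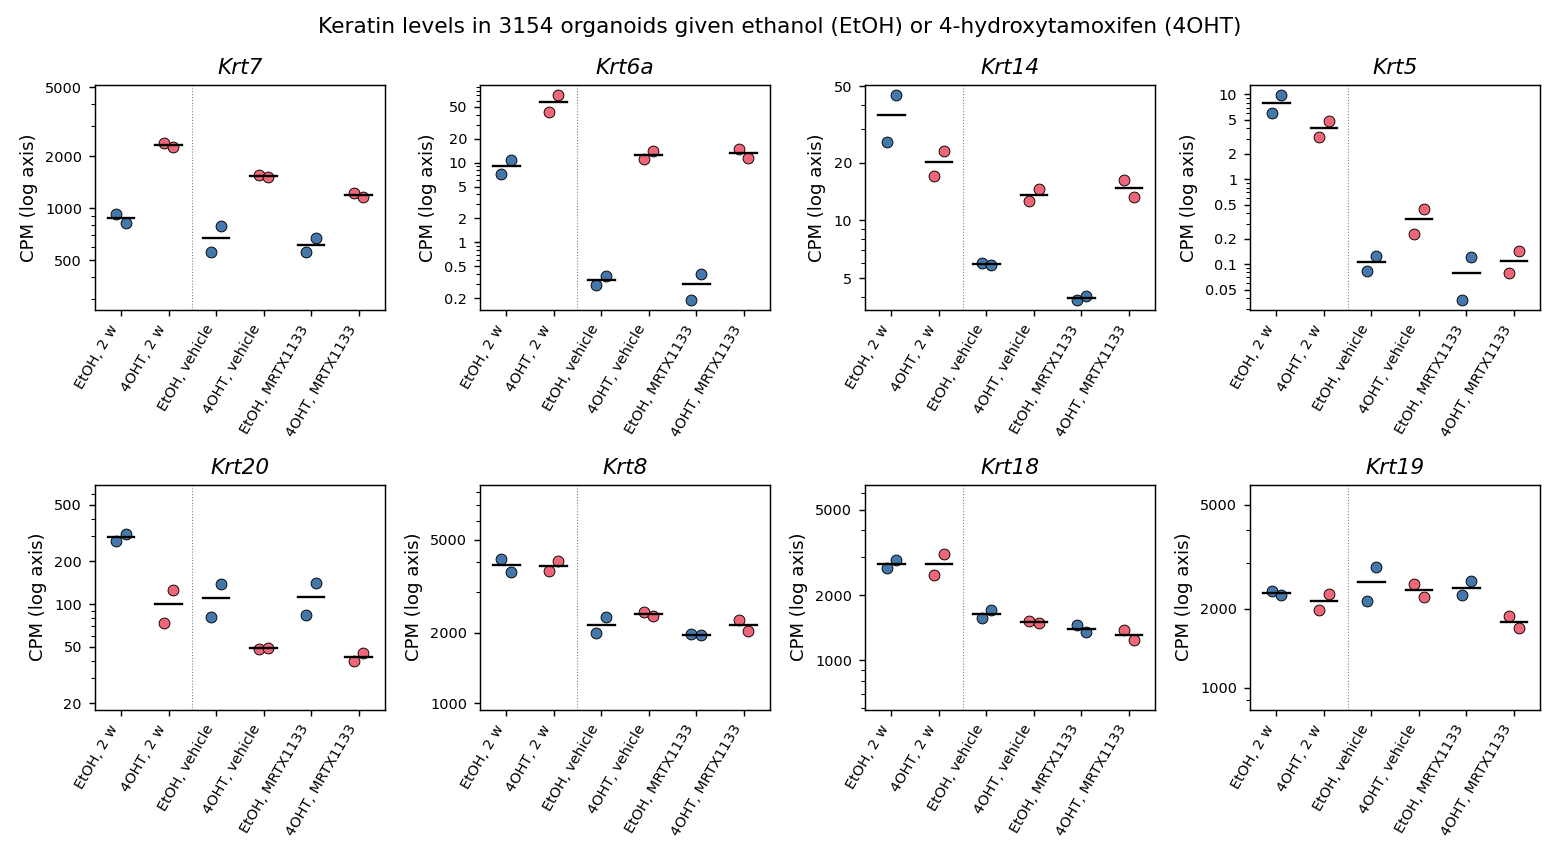
Points are libraries of 3154 organoids and bars group means, in CPM on log axes, for ethanol (blue) and 4OHT (red) at 2 weeks (left of the dotted line) and at 48 hours with vehicle or MRTX1133. Krt7 and Krt6a are higher and Krt20 lower in each 4OHT group, while Krt14 is at 35.3 against 20.1 CPM at 2 weeks and at 5.92 against 13.6 CPM at 48 hours with vehicle.

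Other keratins moved on loss of Hnf4a as well. Krt80, a type II epithelial keratin, stood at 16.8 ± 0.0660 CPM with ethanol and rose to 51.0 ± 1.92 CPM with 4OHT at 2 weeks (log2 change 1.603, adjusted p = 0.007308) and from 7.73 ± 0.699 to 28.9 ± 1.45 CPM at 48 hours with vehicle (1.90, adjusted p = 0.0004582). Krt16, the type I partner of Krt6a, was at 0.455 ± 0.00877 CPM with ethanol and rose to 2.67 ± 0.622 CPM with 4OHT at 2 weeks (log2 change 2.54, adjusted p = 0.01996). Krt79 rose too, from 14.9 ± 4.32 to 35.7 ± 6.18 CPM, and Krt23 fell from 153 ± 33.8 to 60.5 ± 5.47 CPM (log2 change -1.34, adjusted p = 0.01665). Of the 16 genes of a basal and squamous list, 10 were tested at 2 weeks and 3 rose, with none called lower, beside 4.03% of all genes called higher. At 48 hours 5 of 11 rose and none fell with vehicle, beside 15.3% of all genes called higher, and 3 rose and 1 fell with MRTX1133, beside 13.2% higher and 14.5% lower. Those that rose with vehicle included Ivl, a precursor of the cornified envelope, from 16.5 ± 8.82 to 114 ± 19.1 CPM (log2 change 2.79, adjusted p = 0.001663). Trp63, the basal cell master regulator, did not rise: under MRTX1133 it fell from 0.684 ± 0.115 to 0.0946 ± 0.0334 CPM after 4OHT.
Of 15 genes that anchor keratin filaments to cell junctions, 14 were tested at 2 weeks and 3 fell: the desmosomal cadherin Dsg2 (log2 change -0.69), the plaque protein Dsp, which binds keratin filaments (596 ± 79.3 to 331 ± 34.2 CPM, -0.85, adjusted p = 0.0288) and Pkp2 (-0.72). None of the 14 rose, beside 4.03% of all genes called higher and 5.78% called lower. With vehicle at 48 hours Pkp1 and Pkp2 fell, and Eppk1 and Plec, linkers of keratin to other structures, rose. These were 4 of 14 tested, beside 31% of all genes called (15.3% higher, 15.7% lower). With MRTX1133 2 rose and 1 fell, beside 27.7% of all genes (13.2% higher, 14.5% lower), so both counts lay near the all-gene shares. Nes, an intermediate filament gene of progenitor cells, rose from 0.407 ± 0.250 to 12.5 ± 3.79 CPM at 2 weeks (log2 change 4.98, adjusted p = 0.008948), and was called higher in both 48-hour comparisons. In a list of 10 genes of transitional epithelial cells, 1 of 10 rose at 2 weeks and none fell. Of 9 tested at 48 hours, 3 rose and 2 fell with vehicle, and 3 rose and 2 fell with MRTX1133. The shares of all genes are those given above. Itgb6, an integrin subunit of this list, rose in all 3 deletion comparisons, by 1.07 to 1.69 on the log2 scale. Cdkn1a, a cell cycle inhibitor of the same list, fell at 48 hours by 2.48 on the log2 scale with vehicle.

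MRTX1133 gave no called keratin in 3154 organoids. With ethanol, 0 of 8 members were called, beside 0.349% of all genes (0.317% higher, 0.0323% lower), and with 4OHT 0 of 8, beside 4.64% of all genes (2.1% higher, 2.54% lower). The lowest adjusted p with ethanol was that of Krt14, at 5.92 ± 0.130 CPM with vehicle and 3.94 ± 0.109 CPM with MRTX1133 (log2 change -0.59, SE 0.18, adjusted p = 0.265). In the 4OHT organoids Krt19 had 2482 and 2226 CPM with vehicle and 1876 and 1696 CPM with MRTX1133 (log2 change -0.40, SE 0.16, adjusted p = 0.221), and Krt7 had a log2 change of -0.37 (SE 0.18, adjusted p = 0.29). A fit of only these 2 groups called both (adjusted p = 0.0237 for Krt19 and 0.0182 for Krt7), beside 26.5% of all genes (13.4% as lower). In the fit of all groups, 0 of 10 genes that report ERK activity were called with ethanol (median log2 change -0.235). With 4OHT 4 of them fell (median log2 change -0.459).

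In 1027B organoids, trametinib lowered Krt19 modestly and left the other tested keratins uncalled. Of 8 members tested, 1 fell and none rose, beside 26.7% of all genes, 13.5% as higher and 13.2% as lower. Krt19 had 2328 and 2536 CPM with vehicle and 1432 and 1816 CPM with trametinib (log2 change -0.58, SE 0.16, adjusted p = 0.03642). The call was lost without either vehicle library (adjusted p = 0.0811 and 0.152) or without the first trametinib library (0.17). Krt18 went from 2177 ± 139 to 1699 ± 113 CPM (log2 change -0.36, SE 0.13, adjusted p = 0.0822), and Krt8 from 2875 ± 37.4 to 2470 ± 338 CPM (-0.22, SE 0.14). Krt7 overlapped between vehicle, at 2187 and 1762 CPM, and trametinib, at 1764 and 1817 CPM.
Same-numbered 1027B libraries deviated together, and a fit with the replicate number as a block called 4 of 8 members under trametinib, all lower, beside 44.9% of all genes (23% as lower) in that fit: Krt14 (log2 change -1.80, adjusted p = 0.0209), Krt18 (-0.36, 0.00797), Krt19 (-0.59, 0.00032) and Krt20 (-0.34, 0.0252). MRTX1133 gave no called member without the block, beside 6.27% of all genes, 3.01% as higher and 3.26% as lower. Krt19 had 1667 and 1912 CPM with MRTX1133 (log2 change -0.44, SE 0.16, adjusted p = 0.159), and the block called Krt19 (-0.45, adjusted p = 0.00344) and Krt20 (-0.37, adjusted p = 0.0331), or 2 of 8, beside 24.1% of all genes (12.7% as lower). Krt20 had 36.4 and 69.1 CPM with vehicle and 31.5 and 48.2 CPM with MRTX1133, so the groups overlapped but each MRTX1133 library lay below its numbered partner. The 2 inhibitors share the vehicle libraries. Set against each other directly, they gave 0 called members and 0% of all genes (edgeR: 2357 genes with an unadjusted p under 0.05; DESeq2 called 675; the replicate block called 2050, none of them a member).
Krt5 had 8 and 20 counts with vehicle and 1 and 0 with trametinib, below the filter for testing. Among other keratins, Krt79 fell from 48.6 ± 21.3 to 9.20 ± 4.07 CPM and Krt23 from 215 ± 0.598 to 128 ± 8.66 CPM with trametinib, while Krt4, a keratin of moist stratified epithelium, rose from 0.693 ± 0.706 to 7.00 ± 0.800 CPM. Of the anchoring genes 3 rose and 6 fell of 14 tested, with Dsc2 higher (log2 change 1.18) and Perp lower (-1.40), beside 13.5% of all genes called higher and 13.2% lower. Vim, the mesenchymal intermediate filament gene, fell from 51.6 ± 29.9 to 7.49 ± 3.98 CPM. Summed levels of the leukocyte list were 7.85 to 8.28 CPM with vehicle and 6.62 to 7.26 CPM with trametinib, and those of the endothelial list 2.86 to 3.95 and 8.10 to 10.0 CPM and those of the fibroblast list 0.533 to 0.921 and 1.03 to 1.69 CPM, and their part in the Krt19 change was not tested. Of 10 genes that report ERK activity, 8 fell with trametinib and 4 with MRTX1133.

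In 3311 cells 50 nM trametinib separated the partners Krt8 and Krt18: Krt18 fell while Krt8 was not called. Of 7 members tested 2 rose and 2 fell, beside 39% of all genes, 19.4% as higher and 19.6% as lower. Krt18 had 2627 and 2380 CPM with vehicle and 847 and 1009 CPM with trametinib (log2 change -1.43, SE 0.19, adjusted p = 0.002048). Krt8 had 2047 and 2923 CPM with vehicle and 1870 and 2478 CPM with trametinib (log2 change -0.19, SE 0.25, adjusted p = 0.567), and its libraries overlapped. The ratio of Krt8 to Krt18 counts was 0.779 and 1.23 with vehicle and 2.21 and 2.46 with trametinib. Krt19 had 2175 and 3460 CPM with vehicle and 2505 and 3351 CPM with trametinib and overlapped as well (log2 change 0.06, SE 0.28).
Krt7 rose from a low level, 11.3 and 22.5 CPM, to 44.2 and 41.8 CPM (log2 change 1.35, SE 0.30, adjusted p = 0.01303). Krt20 rose from 99.2 and 204 CPM to 247 and 443 CPM (log2 change 1.18, SE 0.38, adjusted p = 0.045). The higher vehicle library lay just below the lower trametinib library, and the call was lost without the first vehicle library (log2 change 0.75, adjusted p = 0.174) and in DESeq2 (adjusted p = 0.146). Krt14 fell from 45 to 8 counts over 2 libraries each (log2 change -2.51, SE 0.64, adjusted p = 0.02051). DESeq2 gave it an adjusted p of 0.0559, and the call was lost without either vehicle library or the first trametinib library, with adjusted p from 0.0655 to 0.194.
Vim was at 3292 ± 736 CPM in the vehicle cells and fell to 1019 ± 190 CPM (log2 change -1.69, adjusted p = 0.002809). Of the anchoring genes 12 were tested, 3 rose (Dsp, Dsc2 and Eppk1) and 3 fell (Perp, Pkp1 and Pkp2), beside 19.4% of all genes called higher and 19.6% lower. Of the 10 ERK output genes 9 fell, Etv4 from 114 ± 2.21 to 1.43 ± 0.452 CPM. The leukocyte list went from 9.55 to 15.7 CPM with vehicle to 21.8 to 28.6 CPM with trametinib, with Ptprc at 0 counts in all 4 libraries, and the fibroblast list from 21.5 to 26.2 CPM to 17.3 to 17.5 CPM and the endothelial list from 3.23 to 4.14 CPM to 2.36 to 2.83 CPM. Their part in these changes was not tested.

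In H358, trametinib lowered KRT8 and KRT18 and raised KRT7 and KRT17: of 8 members tested 2 rose and 2 fell, beside 46.8% of all genes, 23.5% as higher and 23.2% as lower. KRT18 had 1197 and 1101 CPM with vehicle and 352 and 418 CPM with trametinib (log2 change -1.58, SE 0.12, adjusted p = 4.704e-05). KRT8 had 1924 and 1914 CPM with vehicle and 865 and 999.9 CPM with trametinib (log2 change -1.04, SE 0.11, adjusted p = 0.0002186). The ratio of KRT8 to KRT18 counts rose from 1.61 and 1.74 to 2.45 and 2.39.
KRT7 had 992.5 and 1019.9 CPM with vehicle and 1678 and 1862 CPM with trametinib (log2 change 0.81, SE 0.11, adjusted p = 0.000533). Its counts were 0.516 and 0.533 of those of KRT8 with vehicle and 1.94 and 1.86 of them with trametinib. KRT17 rose from 1.04 and 1.14 CPM to 3.29 and 4.36 CPM (log2 change 1.80, SE 0.27, adjusted p = 0.001062). KRT19 was not called, at 1173 ± 74.7 CPM with vehicle and 1029 ± 89.7 CPM with trametinib (log2 change -0.19, SE 0.11, adjusted p = 0.197). KRT15, at 17.9 ± 4.23 CPM with vehicle, KRT6A, at 3.24 ± 0.361 CPM, and KRT14, at 0.831 ± 0.289 CPM, were not called either. HNF4A had 0 counts in the 4 H358 libraries, which allows up to 0.118 CPM in the shallowest; such limits cover counting error only.
Among other keratins KRT4, at 74.5 ± 15.9 CPM with vehicle, rose by 2.92 on the log2 scale to 565 ± 17.4 CPM (adjusted p = 1.1e-05), and KRT80 rose from 145 ± 2.30 to 304 ± 41.3 CPM (1.07, adjusted p = 0.000255). Of the anchoring genes 5 of 12 tested rose and 2 fell, beside 23.5% of all genes called higher and 23.2% lower. The plakin genes PPL and EVPL, whose proteins tie keratin to the cornified envelope, rose from 197 ± 18 to 632 ± 7.95 CPM and from 255 ± 19.7 to 584 ± 3.49 CPM. In the basal and squamous list 3 of 12 rose and 7 fell, among them TP63 (92.8 ± 11 to 23.4 ± 3.54 CPM, log2 change -1.98, adjusted p = 4.023e-05) and the nerve growth factor receptor gene NGFR. These counts stand beside the same shares of all genes. All 10 ERK output genes fell. The summed level of the fibroblast list went from 41.2 to 50.0 CPM with vehicle to 246 to 349 CPM with trametinib, with 4 of its 8 genes called higher. COL1A1 (34.4 ± 2.90 to 126 ± 21.8 CPM) and LUM (10.0 ± 3.21 to 164 ± 51.9 CPM) made up most of it, while the fibroblast surface gene THY1 had 0 counts with vehicle and 1 with trametinib. The endothelial list went from 14.9 to 16.1 CPM to 28.5 to 28.8 CPM (2 of 5 called higher), and the leukocyte list went from 6.09 to 11.4 CPM to 1.92 to 2.47 CPM (1 of 5 tested called higher and 1 lower). The part of these lists in the keratin changes was not tested.

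Without a replicate block, trametinib in H1651 called no keratin and no other gene (edgeR: 0 of 6 members and 0% of all genes). In edgeR 597 genes had an unadjusted p under 0.05, and DESeq2 called 47. KRT8 was at 4100 ± 373 CPM with vehicle and 4354 ± 412 CPM with trametinib (log2 change 0.09, SE 0.13), and KRT18 at 2093 ± 137 and 2048 ± 197 CPM (log2 change -0.03, SE 0.12). KRT7 had 26.8 and 93.2 CPM with vehicle and 19 and 57.3 CPM with trametinib, so the groups overlapped (log2 change -0.65, SE 0.74, adjusted p = 0.999). Each trametinib library lay below the vehicle library of the same number. KRT19 was low in this line, at 6.72 ± 0.429 CPM with vehicle. None of the 10 ERK output genes was called without the block, although their median change was -1.52. Same-numbered libraries deviated together (correlation 0.623 over 18277 genes). A fit with the replicate number as a block called KRT7 (log2 change -0.62, adjusted p = 6.238e-10), KRT15 (-0.92, 0.0439) and KRT17 (0.56, 0.00279). It called 1881 of 18277 genes tested.

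**Figure D3:**
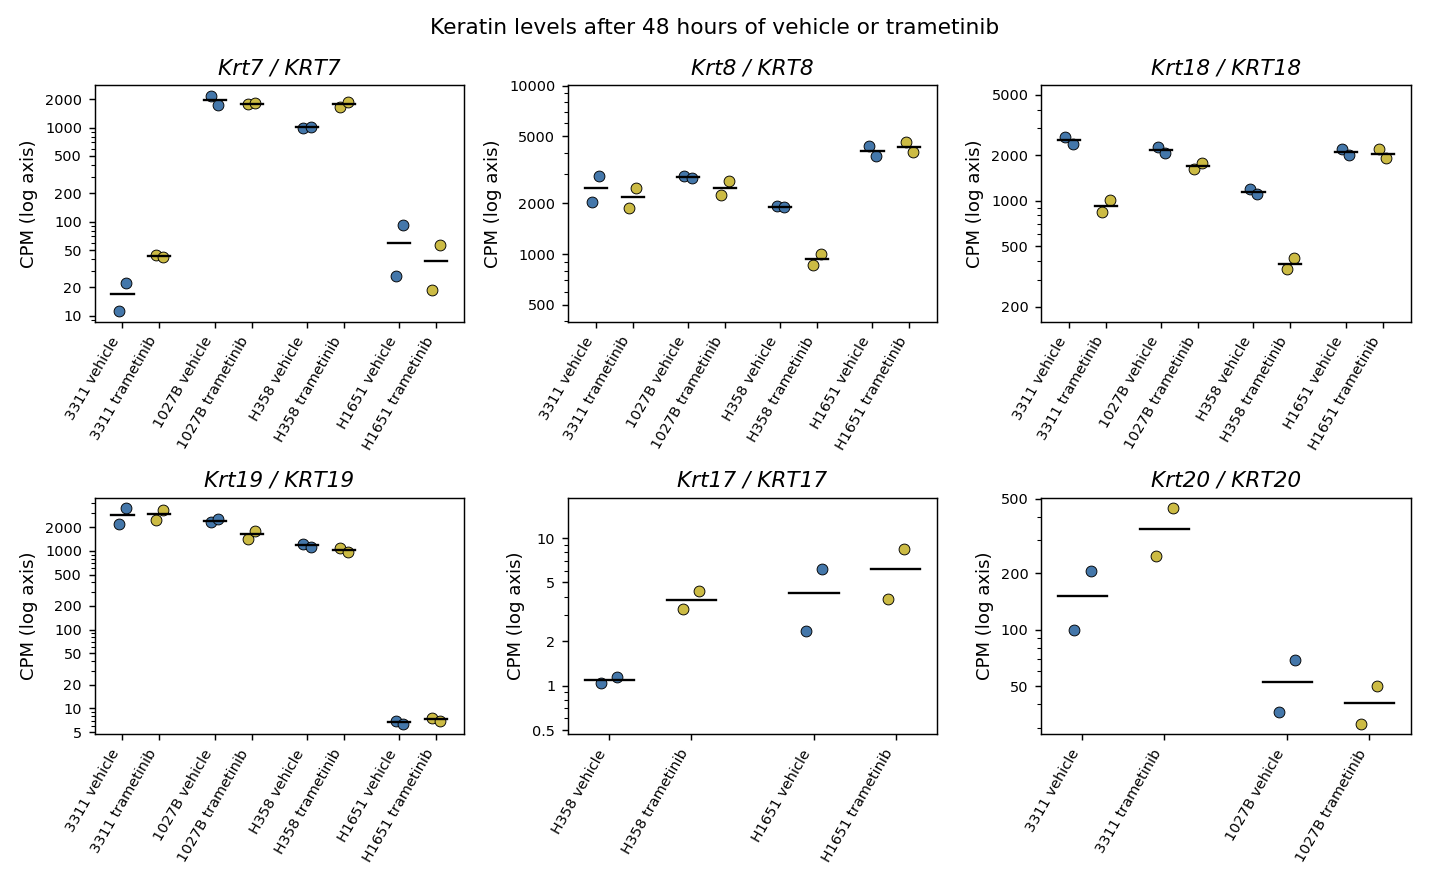
Points are libraries and bars group means, in CPM on log axes, after 48 hours of vehicle (blue) or trametinib (yellow) at 50 nM in 3311, 10 nM in 1027B and 20 nM in H358 and H1651. Krt17 was listed at 0 to 2 counts in 1027B and is not drawn for mouse, and KRT20 has no human values here. KRT18 is lower with trametinib in 3311 and H358, and KRT7 is higher in these lines.

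The trametinib doses and lines differed, so the responses are set side by side without a test of their difference. The Krt18 log2 change was -1.43 in 3311, -1.58 in H358, -0.36 in 1027B and -0.03 in H1651, and that of Krt7 was 1.35, 0.81, -0.14 and -0.65 in the same order. Krt19 was not called in 3311, H358 or H1651. The ratio of Krt8 to Krt18 counts in 1027B was 1.28 and 1.37 with vehicle and 1.38 and 1.52 with trametinib, and in H1651 it was 1.99 and 1.92 with vehicle and 2.12 and 2.13 with trametinib.

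**Figure D4:**
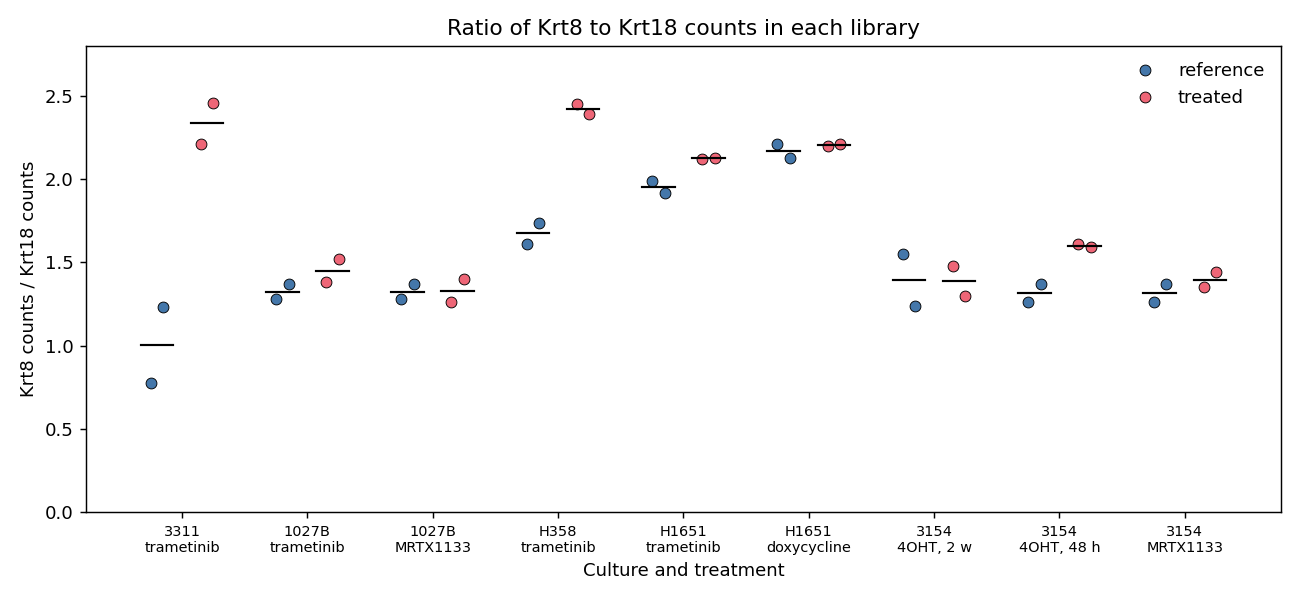
The y axis is the count of Krt8 divided by that of Krt18 in each library (points, with group means as bars), for reference (blue) and treated (red) libraries of 9 comparisons, some of which share their reference. In 3311 and H358 the treated libraries lie at 2.21 to 2.46, above their vehicle libraries at 0.779 to 1.74.

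Doxycycline induction of HNF4A in H1651 raised KRT8 and KRT18 together. Of 6 members tested 2 rose and none fell, beside 1.42% of all genes, 1.04% as higher and 0.386% as lower. KRT8 had 2990 and 2957 CPM without doxycycline and 3861 and 4214 CPM with it (log2 change 0.44, SE 0.07, adjusted p = 0.04511). KRT18 had 1352 and 1390 CPM without and 1759 and 1904 CPM with doxycycline (log2 change 0.42, SE 0.07, adjusted p = 0.04927). Both calls sat close to the threshold and were lost when either library without doxycycline was left out, with adjusted p from 0.149 to 0.202. KRT18 was also lost without the second library with doxycycline (adjusted p = 0.0564), with a minimum of 10 counts in every library (0.0637) and with upper-quartile factors (0.0509), and KRT8 with that minimum (0.064). The KRT8 to KRT18 ratio was 2.21 and 2.13 without and 2.20 and 2.21 with doxycycline. KRT15 went from 11 and 8 counts to 26 and 31 (log2 change 1.64, SE 0.42, adjusted p = 0.141) and was not called. A fit with the replicate number as a block called KRT15 (log2 change 1.64, adjusted p = 0.00455) with KRT8 and KRT18, beside 3048 of 17351 genes. KRT7, KRT17 and KRT19 were not called in either fit, with log2 changes of 0.14, -0.23 and 0.18 without the block. COL3A1, a fibroblast list gene that this line expressed at 432 ± 23.6 CPM, fell to 241 ± 0.913 CPM with doxycycline. The fibroblast list summed to 664 to 759 CPM without and 413 to 456 CPM with doxycycline, the endothelial list to 2.43 to 3.63 and 4.32 to 4.46 CPM and the epithelial list to 145 to 161 and 172 to 197 CPM, and their part in the keratin changes was not tested.

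**Figure D5:**
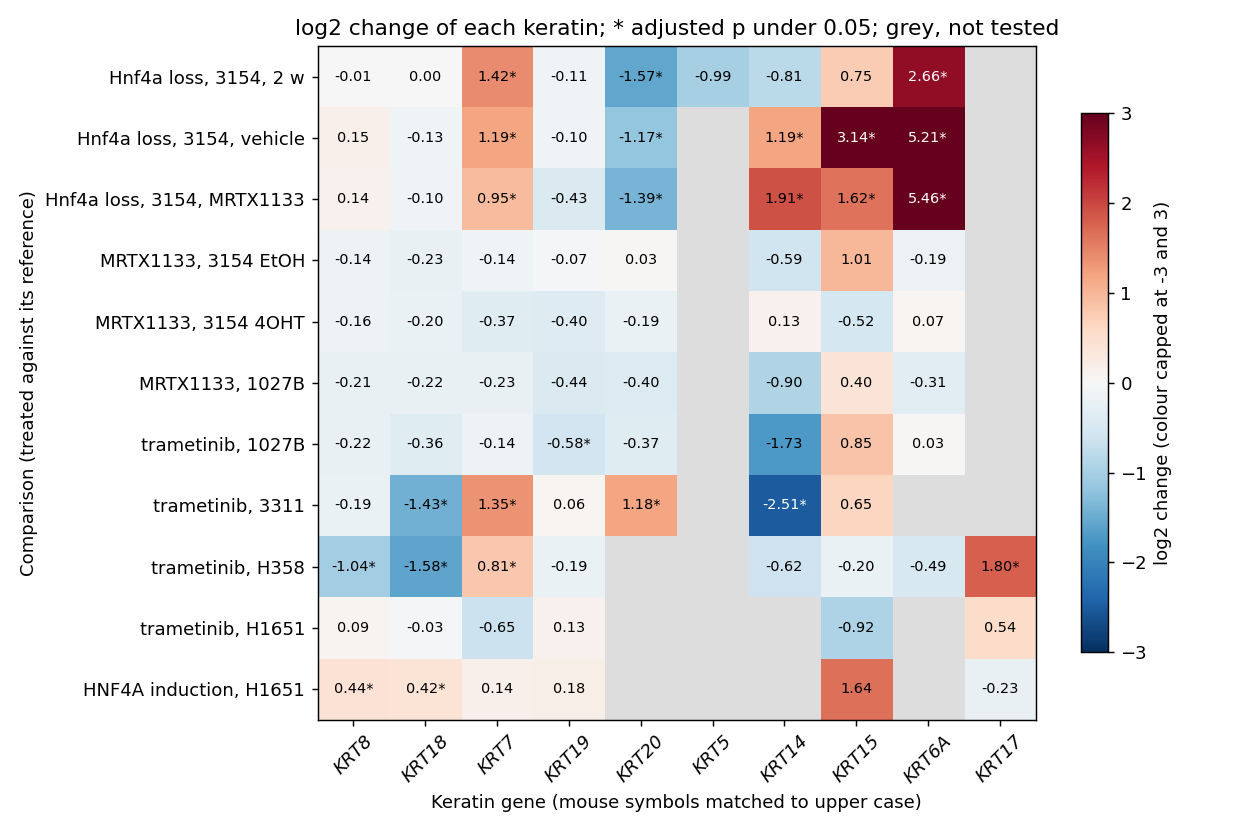
Each cell gives the log2 change of 1 keratin (columns) in 1 comparison (rows), with an asterisk where the adjusted p was under 0.05 and grey where the gene was not tested. Krt7 is marked higher in 5 rows, Krt8 and Krt19 are marked in 2 rows and 1 row, and no keratin is marked in the rows that set MRTX1133 against vehicle.

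Across the 22 mouse libraries, log2 CPM was centred within each table and compared between genes as a description, since libraries of a group and of a table share their treatment and preparation. Among the genes most like Krt7 were 4921531C22Rik (Pearson r = 0.949) and Cables2 (0.946), and Hnf4a had r = -0.71 with it. Krt20 was most like Fpgt (0.94) and Retsat (0.914), with r = 0.74 for Hnf4a. Krt18 was most like Hmga1 (0.956) and Onecut2 (0.953), and Krt8 like Slc23a3 (0.836) and Tnk1 (0.798). Bcl2l15 had r = 0.877 with Krt19. Krt15 was most like Plin2 (0.922) and Slc25a40 (0.922), and Krt14 like Frmd4b (0.846) and 0710001A04Rik (0.842). The partners Krt8 and Krt18 had r = 0.404, and Krt8 and Krt19 had r = 0.659.
Mouse Krt8 shares 26.9% of its 50-base windows with Krt8-ps, a processed copy whose own counts were 0.142% to 0.384% of those of Krt8. In the human tables, pseudogene rows of KRT8 held 0.596% to 1.86% of the counts of KRT8. For Krt7, Krt19 and Krt20 no window was shared with another gene.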

How the data were processed

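RNA from 34 libraries in 17 groups of 2 was sequenced after poly(A) selection with a directional kit, per the labels' protocols. The authors deposited 7 tables of raw counts per gene. The submitters' processing notes name cutadapt 3.5, STAR 2.7.6a and featureCounts 1.6.3 and the builds mm10, mm39 and hg38, without saying which table used which build or whether counting used strand. Mouse positions are those of the GRCm38 reference. Some items, among them an allele of the mouse cultures and a gene compared in pattern, are not reported here.

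The counts were tested as deposited with edgeR 4.0.16 (R 4.3.3): genes were kept by filterByExpr (minimum count 10, minimum total 15), scaled by TMM, and tested with the quasi-likelihood F test with no replicate block, with Benjamini-Hochberg adjustment over all genes of a table and a threshold of 0.05. All groups of a table entered 1 fit. Between 14492 and 18972 genes were tested per table. The SE is the log2 change divided by the square root of F. Replicates differed by more than counting noise in every group (chi-square per degree of freedom 5.9 to 87.9), so no library was merged.

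Every keratin of the set is described in each table that lists it, and genes outside it are those of the lists of keratin anchoring, basal and squamous, transitional epithelial, other intermediate filament, ERK output and other-cell-type genes, and other keratins, named by the size of their change. The keratins and the lists were chosen with earlier results of these data known. Same-numbered libraries deviated together in 1027B (correlations 0.243, 0.372 and 0.414 over 14555 genes), in 3154 at 2 weeks (0.427) and in H1651 with trametinib (0.623). The other 2-group tables gave 0.126, 0.318 and 0.318. The labels do not say what a replicate number marks, so the block was kept as an alternative. Alternatives were RLE and upper-quartile scaling, DESeq2 1.42.0, other filters on low counts, a replicate block, fits of only the groups compared, a limit on the change and leaving out each library.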

Additional observations from a re-analysis of the deposited data

Results flagged for a closer look

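Krt14 differed in direction between the experiments on loss of Hnf4a in 3154 organoids. Its log2 change was -0.8097 at 2 weeks (adjusted p = 0.157, or 0.0071 with a replicate block), with both 4OHT libraries below both ethanol libraries. At 48 hours it was 1.192 with vehicle and 1.906 with MRTX1133, with both 4OHT libraries above both ethanol libraries. The ethanol organoids held 35.3 ± 13.7 CPM at 2 weeks and 5.92 ± 0.130 CPM at 48 hours. These come from separately normalized tables, and the difference between the experiments was not tested.

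KRT15 moved in opposite directions under trametinib in 2 lines, at low counts. In 3311 cells its log2 change was 0.6457 (10 and 18 counts with vehicle, 22 and 24 with trametinib). In H1651 cells it was -0.9195 (1.08 ± 0.189 CPM with vehicle, 0.566 ± 0.0327 CPM with trametinib). Neither change was called without a replicate block (edgeR adjusted p = 0.351 and 0.999), and the block called that in H1651 (adjusted p = 0.0439). The doses were 50 nM and 20 nM, and the difference was not tested.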

How the results depend on the processing

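Over all settings no change of a keratin past the threshold reversed sign. Leaving out libraries left 406 values on the same side of the threshold, brought 4 past it and took 22 back under it. The other settings left 609 on the same side, brought 14 past it and took 8 back. In H358 the number of calls stayed at 4 under every setting but the limit of 1 on the absolute log2 change, which gave 3.

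For 1027B with trametinib, where 1 keratin was called, DESeq2 called 3, no filter on low counts 2, the replicate block 4, and the fit of only the 2 groups and the limit of 1 on the absolute log2 change 0 each, and leaving out a library gave 0 to 1. With MRTX1133 the replicate block called 2 in place of 0. Among all genes at 2 weeks in 3154 it called 4563 of 14492 tested. At 2 weeks in 3154 the block called 5 in place of 3, adding Krt5 (-0.98, adjusted p = 0.013) and Krt14 (-0.77, adjusted p = 0.0071), and leaving out a library gave 3 to 5. For the 48-hour loss of Hnf4a, a minimum of 10 counts in every library called 3 in place of 5 with vehicle and 3 in place of 5 with MRTX1133, where Krt6a and Krt15 were not tested, and with MRTX1133 leaving out a library gave 3 to 4. For MRTX1133 in 4OHT organoids the fit of only the 2 groups called 2 in place of 0. In 3311, DESeq2 called 2 in place of 4, and leaving out a library gave 2 to 4. For doxycycline, upper-quartile factors called 1 in place of 2, the minimum of 10 counts and the limit on the change 0 each, and leaving out a library gave 0 to 2. The block added KRT15 for doxycycline (1.64, adjusted p = 0.00455), beside 3048 of 17351 genes called. In H1651 with trametinib the block called 3 in place of 0: KRT7 (-0.62, adjusted p = 6.238e-10), KRT15 (-0.92, adjusted p = 0.0439) and KRT17 (0.56, adjusted p = 0.00279). That fit called 1881 of 18277 genes. Leaving out a library there gave 0 to 1, with KRT7 called without the first vehicle library (-1.29, adjusted p = 0.0346). The cause of these shifts was not tested. The labels do not say what a replicate number marks. Correlations of same-numbered libraries were 0.126 to 0.623 in the 2-group tables, from 1 comparison each, and -0.251 to 0.549 in the 48-hour 3154 table.

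Over all genes, the block moved the calls from 3880 to 6540 for 1027B with trametinib, from 913 to 3515 with MRTX1133, from 1421 to 4563 at 2 weeks in 3154, from 247 to 3048 with doxycycline and from 0 to 1881 in H1651 with trametinib. DESeq2 moved them from 913 to 1584 in 1027B with MRTX1133, from 1421 to 2336 at 2 weeks, from 54 to 322 and from 717 to 1308 for MRTX1133 in 3154 with ethanol and with 4OHT, and from 247 to 441 with doxycycline. A fit of only the 2 groups moved those for MRTX1133 in 3154 from 54 to 0 with ethanol and from 717 to 3932 with 4OHT, and those for 4OHT with vehicle from 4795 to 3154. Leaving out 1 library moved them to between 1336 and 2754 for 1027B with trametinib, 138 and 349 with MRTX1133, 395 and 2790 at 2 weeks, 1668 and 5964 for 4OHT with vehicle, 1745 and 2805 for 4OHT with MRTX1133 (from 4279), 0 and 309 for MRTX1133 with ethanol, 0 and 23 for MRTX1133 with 4OHT, 3772 and 6298 in 3311 (from 5938), 232 and 412 with doxycycline and 0 and 193 in H1651 with trametinib. Upper-quartile factors moved the median change of all genes at 2 weeks from 0.0185 to 0.111. Few counts limit the precision of the Krt15 changes in the mouse tables.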
